A study of Arabidopsis thaliana with 9 samples.

Results

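The RPP4 and SNC1 cluster is a row of disease resistance genes on chromosome 4 of Arabidopsis thaliana. Its 7 members were taken by locus ID from the 33602 genes counted in each library: RPP4 (AT4G16860), SNC1 (AT4G16890), AT4G16900, AT4G16920, AT4G16940, RPP5 (AT4G16950) and AT4G16960. All 7 passed the filter on low counts, as did 18783 genes in all. Messenger RNA was sequenced from whole rosettes, the above-ground leaf crown, of soil-grown plants aged 21 days under 16 h of light and 8 h of dark. The 3 genotypes were wild type, the insertion line pdx3-3 (SALK_054167C) and the insertion line pdx3-4 (GK-260E03), all in the Col-0 ecotype, each with 3 libraries described as biological replicates. Each mutant line stands for a single insertion allele, and the position of the insertions was not analysed here. The study asked which transcripts change when PDX3 is disrupted.

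PDX3 encodes the oxidase that makes pyridoxal 5'-phosphate, the cofactor form of vitamin B6, from its pyridoxine and pyridoxamine phosphates. The cluster encodes intracellular receptors of the TIR class, proteins that join a Toll/interleukin-1 receptor domain, a nucleotide-binding domain and leucine-rich repeats. Such receptors detect pathogen molecules inside the cell and signal through EDS1 with its partners PAD4 and SAG101 and the helper receptors of the ADR1 and NRG1 families. RPP4 gives Col-0 plants resistance to isolates of the downy mildew agent Hyaloperonospora arabidopsidis. SNC1 is best known from an autoactive mutant that is dwarfed and resistant without infection. RPP5 was defined as a downy mildew resistance gene in another accession, Landsberg erecta, and the name marks the corresponding locus in Col-0. The transcript level of such genes is known to matter, because extra SNC1 dose alone can turn defence on.

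The members are copies of each other, which decides how far reads can be told apart. Of the stretches of 90 aligned coding bases without a gap in all 7, the one with the fewest variable positions is shown. In this window 10 positions varied. It was picked as the most alike stretch, so it is not typical of the whole coding sequence. Sequences are from the TAIR10.1 genome, read 5′ to 3′ along the minus strand that carries every member, and capitals mark bases that differ from SNC1. The window lies at chr4:9504370-9504459 in SNC1, chr4:9491528-9491617 in RPP4, chr4:9515419-9515508 in AT4G16900, chr4:9524535-9524624 in AT4G16920, chr4:9536471-9536560 in AT4G16940, chr4:9543194-9543283 in RPP5 and chr4:9549836-9549925 in AT4G16960.
SNC1: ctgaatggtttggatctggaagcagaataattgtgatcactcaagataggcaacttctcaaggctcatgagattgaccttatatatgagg
RPP4: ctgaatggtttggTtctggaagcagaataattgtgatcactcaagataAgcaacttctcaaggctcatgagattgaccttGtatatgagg
AT4G16900: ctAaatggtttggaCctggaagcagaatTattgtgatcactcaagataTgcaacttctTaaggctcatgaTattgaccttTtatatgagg
AT4G16920: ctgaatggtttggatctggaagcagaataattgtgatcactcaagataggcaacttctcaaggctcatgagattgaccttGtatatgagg
AT4G16940: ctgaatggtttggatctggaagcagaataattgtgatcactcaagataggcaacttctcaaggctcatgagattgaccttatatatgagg
RPP5: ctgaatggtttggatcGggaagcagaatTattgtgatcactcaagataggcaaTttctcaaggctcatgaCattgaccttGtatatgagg
AT4G16960: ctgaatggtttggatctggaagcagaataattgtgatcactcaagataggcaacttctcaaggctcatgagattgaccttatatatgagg

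In this window SNC1, AT4G16940 and AT4G16960 were identical, AT4G16920 differed from SNC1 at 1 base, RPP4 at 3, RPP5 at 5 and AT4G16900 at 7. Over the whole aligned coding sequence, identity was highest between AT4G16940 and AT4G16960 (95.9%), followed by AT4G16920 and RPP5 (93.8%) and by RPP4 and AT4G16920 (92.2%). SNC1 was closest to RPP5 (91.4%), and its identity with RPP4 was 87.5%. With AT4G16940 and AT4G16960, identical to it in the window, SNC1 had an identity of only 80.3% and 80.7%. The least alike pair was AT4G16900 and AT4G16940 (75.6%).

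To see how much of each transcript a short read could place, its 50-base words were compared. Every word of a member's transcripts was looked up on either strand in all other annotated transcripts. AT4G16960 shared 54.7% of its words with another gene, RPP5 45.7%, AT4G16920 37.3%, AT4G16940 28.4%, RPP4 27%, SNC1 18.2% and AT4G16900 5.92%. With 100-base words the shares were 50.2%, 29.2%, 24.6%, 25.3%, 8.63%, 4.01% and 0.846% in the same order. The shares of RPP5 and AT4G16920 include words of annotated genes that overlap them at the same bases. A read there may still have a single place. Counting only words shared with another member, the 50-base shares were 54%, 36.5%, 31.5%, 28.3%, 26.4%, 18.2% and 5.33% in that order. The words of AT4G16960 were mostly those of AT4G16940, which held 53.4% of them. AT4G16920 and RPP5 shared 26.7% and 26.3% of their words with each other. Neither the read length nor the handling of multi-mapping reads is given in the sources used here. Counts may therefore have been divided between copies, and every member's count is uncertain to that degree, AT4G16900 least.

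**Figure D1:**
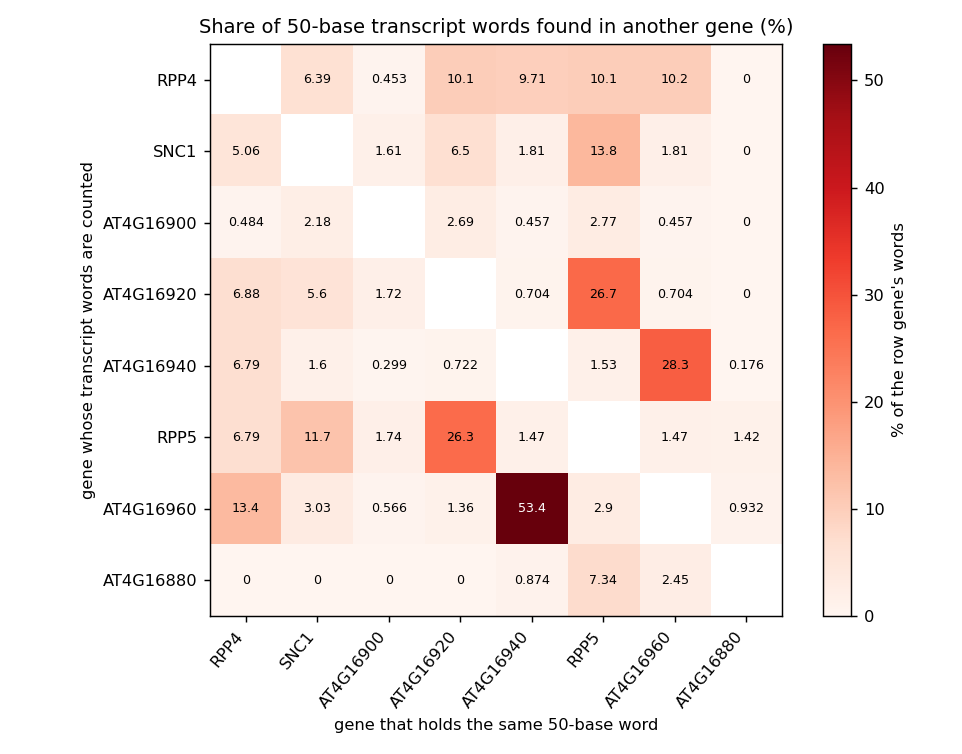
Percentage of the 50-base transcript words of each gene (rows) that also occur in the transcripts of another gene (columns), for the 7 members and the neighbouring locus AT4G16880; darker red is a larger share. The largest cell is AT4G16960 with AT4G16940 at 53.4%, and the row of AT4G16900 stays at or below 2.77%.

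Library totals were 15912737 to 21938941 counts. PDX3, the disrupted gene, checked the labels: it stood at 85.9 ± 6.29 CPM (count over the library total, scaled to a total of 1000000; mean ± SD, n = 3) in Col-0, at 9.41 ± 1.28 in pdx3-3 and at 45.9 ± 4.9 in pdx3-4, with no overlap between genotypes. Replicates 1 and 2 of pdx3-3 had a chloroplast share of counts of 0.536% and 0.174%, against 0.0162% to 0.0532% in the other 7 libraries. Leaf markers summed to 72200 to 75200 CPM in Col-0, 60100 to 65700 in pdx3-3 and 60000 to 64600 in pdx3-4. Of these markers, 4 of 5 were called lower in pdx3-3 and 2 of 5 in pdx3-4, beside 17.5% and 18.4% of all tested genes. Root markers summed to at most 61.1 CPM, with 3 of 5 at 0 in every library, flower markers to 3.76 to 4.71 CPM in Col-0, 2.2 to 4.58 in pdx3-3 and 0.721 to 2.21 in pdx3-4, and seed markers to at most 0.193 CPM. Of 4 tested flower markers, AG fell in both mutants (log2 fold change −2.46 and −3.44, edgeR adjusted p = 5.92e-05 and 1.13e-05) and SEP3 rose in pdx3-3 (1.36, adjusted p = 0.0142). The part of these differences in the results on the cluster was not tested. In whole rosettes, fewer cells of a type and less RNA per cell cannot be told apart.

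The cluster as a whole was more abundant in both mutants. The summed level of the 7 members was 498 ± 60.4 CPM in Col-0, 920 ± 127 in pdx3-3 (1.85-fold) and 804 ± 57.5 in pdx3-4 (1.62-fold; mean ± SD, n = 3 each). Of the 7 members, 5 were called higher and 1 lower in pdx3-3 against Col-0, where 19% of all tested genes were called higher and 17.5% lower. The count was the same in pdx3-4, 5 higher and 1 lower, beside 20.9% and 18.4% of all tested genes. The median log2 fold change of the members was 0.78 in pdx3-3 and 0.54 in pdx3-4, against −0.03 and −0.01 over all tested genes. A gene was called at an adjusted p under 0.05 in edgeR's quasi-likelihood test, with Benjamini-Hochberg adjustment over the 18783 genes. Both comparisons use the same Col-0 libraries, so they are not independent of each other.

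**Figure D2:**
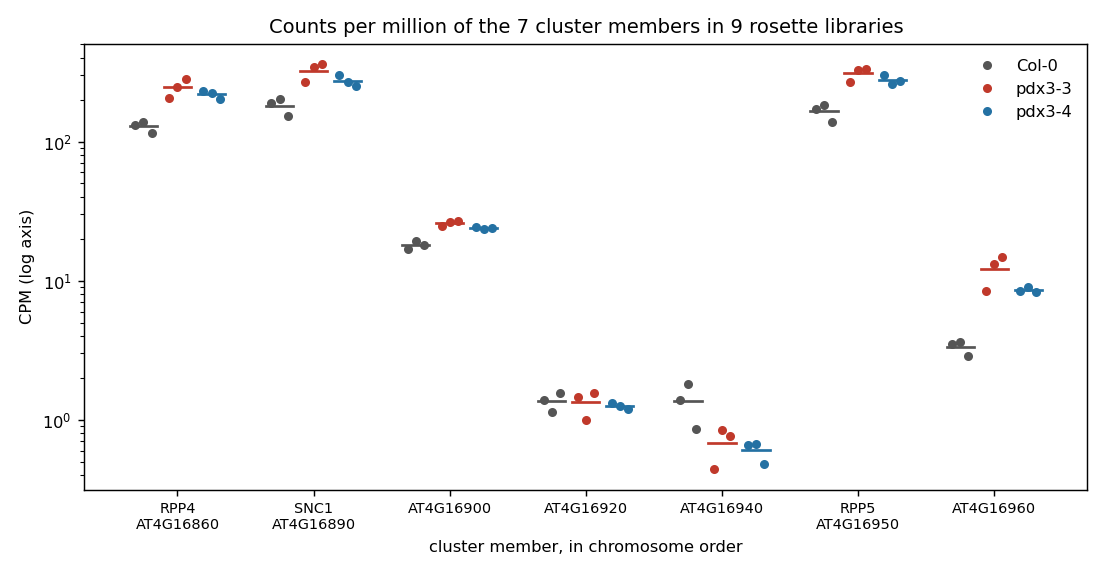
Level of each cluster member in CPM on a log axis, in chromosome order; each point is a library, and the short line is the mean of the 3 libraries of a genotype. For RPP4, SNC1, AT4G16900, RPP5 and AT4G16960 all 6 mutant libraries lie above the 3 Col-0 libraries, for AT4G16940 all 6 lie below them, and for AT4G16920 they overlap. The share of all tested genes with such a separation is not given here, so the separation cannot be read as particular to the cluster.

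RPP4, the downy mildew receptor, rose in both mutants. Its level was 132, 138 and 116 CPM in Col-0 replicates 1, 2 and 3, 205, 249 and 284 CPM in pdx3-3 and 231, 224 and 203 CPM in pdx3-4. Every mutant library was above every Col-0 library, while the pdx3-3 and pdx3-4 libraries overlapped. The log2 fold change was 0.88 ± 0.12 (SE; edgeR adjusted p = 0.000170) in pdx3-3 and 0.72 ± 0.12 (adjusted p = 0.000635) in pdx3-4.

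SNC1, whose autoactive form triggers constitutive defence, rose as well. It was counted at 188, 202 and 153 CPM in Col-0, 267, 345 and 360 CPM in pdx3-3 and 302, 268 and 250 CPM in pdx3-4. Again no mutant library reached down to the Col-0 range. Its log2 fold change was 0.78 ± 0.14 (SE; edgeR adjusted p = 0.00112) in pdx3-3 and 0.54 ± 0.14 (adjusted p = 0.00908) in pdx3-4.

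RPP5 showed values close to those of SNC1. Its libraries stood at 172, 183 and 139 CPM in Col-0, 270, 328 and 333 CPM in pdx3-3 and 301, 260 and 271 CPM in pdx3-4. The groups of mutant and Col-0 libraries did not overlap. In log2 terms the change was 0.86 ± 0.12 (SE; edgeR adjusted p = 0.000304) in pdx3-3 and 0.70 ± 0.12 (adjusted p = 0.00112) in pdx3-4. For all of these 3 genes, replicate 3 was the lowest Col-0 library and replicate 1 the lowest pdx3-3 library. With replicates 1 and 2 of pdx3-3, the libraries of higher chloroplast share, left out together, the pdx3-3 values were 1.09 for RPP4, 0.94 for SNC1 and 0.96 for RPP5, all still called by the same test, in which the lone pdx3-3 library is assumed to vary like the other groups.

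AT4G16900, a further TIR receptor gene and the member that shares least sequence with the others, rose less. It stood at 17, 19.4 and 18.1 CPM in Col-0, 24.6, 26.5 and 27 CPM in pdx3-3 and 24.4, 23.6 and 24.1 CPM in pdx3-4. The lowest mutant library was above the highest Col-0 library. Its log2 fold change was 0.46 ± 0.08 (SE; edgeR adjusted p = 0.000788) in pdx3-3 and 0.35 ± 0.08 (adjusted p = 0.00427) in pdx3-4.

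AT4G16960 and AT4G16940, the pair with the most similar coding sequences, were called in opposite directions, AT4G16940 on few counts. AT4G16960, annotated as a disease resistance protein of the TIR class, had the largest rise of the cluster: 3.5, 3.6 and 2.89 CPM in Col-0, 8.48, 13.2 and 14.8 CPM in pdx3-3 and 8.49, 8.94 and 8.29 CPM in pdx3-4. The lowest mutant library was above all Col-0 libraries, and pdx3-3 replicate 1 lay with the pdx3-4 libraries. The log2 fold change was 1.81 (95% interval 1.39 to 2.23, edgeR adjusted p = 3.26e-05) in pdx3-3 and 1.3 (0.88 to 1.73, adjusted p = 0.000354) in pdx3-4. These values rest on 54 to 79 counts per Col-0 library and 135 to 310 per mutant library. AT4G16960 shares 53.4% of its 50-base words with AT4G16940, and the part of read assignment in its rise was not tested.

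AT4G16940, with the same annotation, was called lower on few counts. Its counts were 27, 40 and 16 in Col-0, 7, 17 and 16 in pdx3-3 and 14, 14 and 10 in pdx3-4, or 0.856 to 1.82 CPM in Col-0 and 0.44 to 0.842 CPM in the mutants. All 6 mutant libraries were below the lowest Col-0 library by CPM, but the gap to Col-0 replicate 3 was small. The fitted log2 fold change was −1.04 (95% interval −1.80 to −0.27, edgeR adjusted p = 0.0381) in pdx3-3 and −1.23 (−2.00 to −0.46, adjusted p = 0.0168) in pdx3-4. Leaving out Col-0 replicate 2, its highest library, ended both calls (−0.74, adjusted p = 0.159, and −0.93, adjusted p = 0.0810), and DESeq2 and limma-voom did not call the pdx3-3 value (adjusted p = 0.0677 and 0.0550). The ratio of AT4G16960 to AT4G16940 counts was 1.98 to 3.38 in Col-0, 15.6 to 19.4 in pdx3-3 and 12.9 to 17.2 in pdx3-4. AT4G16940 shares 28.3% of its words with AT4G16960, so the ratio holds for reads as the authors assigned them, and the part of that assignment in it was not tested.

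AT4G16920, annotated likewise, was not called in either mutant. Its counts were 27, 25 and 29 in Col-0, 23, 20 and 33 in pdx3-3 and 28, 26 and 25 in pdx3-4. The libraries of all genotypes overlapped. The log2 fold change was −0.08 (95% interval −0.59 to 0.44, edgeR adjusted p = 0.825) in pdx3-3 and −0.16 (−0.67 to 0.35, adjusted p = 0.623) in pdx3-4 on 20 to 33 counts per library. It shares 26.7% of its words with RPP5, which was called higher.

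On a scale that also divides by exon length (RPKM, CPM per kilobase of exon), the members lay at separate levels. SNC1 (35.3 ± 4.95 RPKM in Col-0, SD, n = 3), RPP4 (31.9 ± 2.77) and RPP5 (28.3 ± 3.94) led. Their ranges overlapped, but every Col-0 library held them in this order. RPP5 was the lowest of these 3 genes in every library. No test between genes was made. AT4G16900 followed at 4.83 RPKM and AT4G16960 at 1.09, and the libraries of each genotype kept them clear of the members next in the order. AT4G16940 (0.242 RPKM) and AT4G16920 (0.239) came last and overlapped. In pdx3-3 the levels were 63.3 RPKM for SNC1, 61 for RPP4, 53.5 for RPP5, 6.91 for AT4G16900, 3.98 for AT4G16960, 0.235 for AT4G16920 and 0.122 for AT4G16940. In pdx3-4 RPP4 (54.5) came ahead of SNC1 (53.4) by mean, though SNC1 was higher in replicate 1 (59.1 against 57.3 RPKM). RPP5 followed at 47.8 RPKM, AT4G16900 at 6.38, AT4G16960 at 2.81, AT4G16920 at 0.221 and AT4G16940 at 0.108.

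The 3 abundant genes kept nearly the same division of the cluster's counts in every genotype. RPP4, SNC1 and RPP5 together held 94.6% to 96% of the counts in each library. RPP4 held 25.1% to 28.5%, SNC1 33% to 36.8% and RPP5 32.2% to 35.7%. The minor members shifted: AT4G16900 held 3.69% in Col-0, 2.85% in pdx3-3 and 2.99% in pdx3-4, and AT4G16960 held 0.67%, 1.3% and 1.07%. AT4G16940 went from 0.267% to 0.0729% and 0.0749%, and AT4G16920 from 0.28% to 0.148% and 0.156%, the last against a total that grew while its own level was not called. Shares are of reads as assigned, and no test was made on them.

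**Figure D3:**
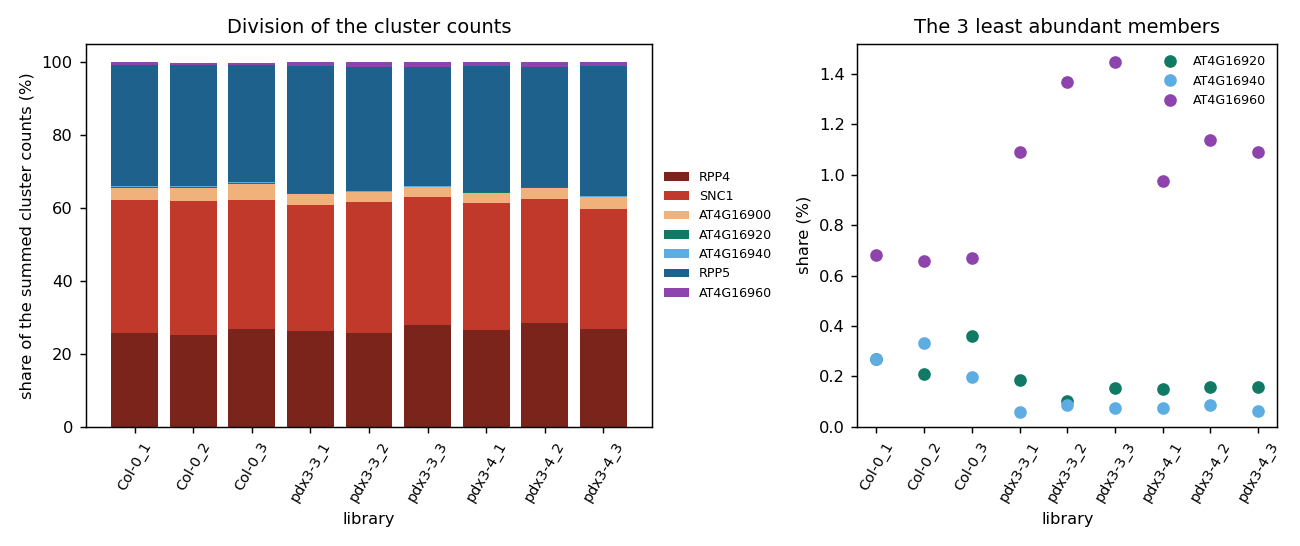
Left, division of the summed cluster counts among the 7 members in each library (stacked bars, % of cluster counts, starting at 0); right, the shares of the 3 least abundant members on their own scale, 1 point per library. RPP4, SNC1 and RPP5 fill 94.6% to 96% of every bar, the AT4G16960 points lie at 0.657% to 0.681% in Col-0 and at 0.977% to 1.45% in the mutants, and the AT4G16920 and AT4G16940 points of Col-0 replicate 1 coincide at 0.27%.

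No member was called between the alleles. In pdx3-3 against pdx3-4, 0 of 7 members passed in either direction with edgeR, DESeq2 or limma-voom, where edgeR called 3.32% of all tested genes higher and 2.84% lower. The median log2 fold change of the members was 0.16, against −0.01 over all tested genes. All 7 values were above 0: 0.16 (95% interval −0.09 to 0.41) for RPP4, 0.24 (−0.06 to 0.54) for SNC1, 0.16 (−0.11 to 0.43) for RPP5 and 0.11 (−0.05 to 0.28) for AT4G16900. The wider intervals were −0.44 to 0.60 for AT4G16920 and −0.65 to 1.04 for AT4G16940. AT4G16960 was the 1 member with an unadjusted p under 0.05 (log2 fold change 0.51, 95% interval 0.13 to 0.89, unadjusted p = 0.0138, edgeR adjusted p = 0.119). Without pdx3-3 replicate 1 it passed, at 0.70 (adjusted p = 0.00819), and with replicate 3 as the lone pdx3-3 library it was 0.78 (adjusted p = 0.0404). PDX3 itself was lower in pdx3-3 than in pdx3-4 by a log2 fold change of −2.29 ± 0.12 (SE; edgeR adjusted p = 8.56e-06).

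The members lie on the minus strand of chromosome 4 from base 9488466 to 9551028 (TAIR10.1), a span of 62.6 kb that holds 6 other genes of the files. RPP4 covers 9488466 to 9495837, SNC1 9500271 to 9505972, AT4G16900 9511859 to 9516688, AT4G16920 9517950 to 9525800, AT4G16940 9531373 to 9537918, RPP5 9538233 to 9544755 and AT4G16960 9547402 to 9551028. AT4G16920 overlaps AT4G16915 on the plus strand, so reads there can be told apart only by strand. The strand setting of the counting is not given in the sources used here. RPP5 overlaps AT4G16955, also on the plus strand, which has no count in the files. AT4G16960 overlaps the start of AT4G16970 (base 9551023) on the same strand, where strand cannot tell reads apart.

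Neighbouring genes had medians near 0. Of 33 other loci of the region, 27 were tested, and 2 were called higher and 2 lower in pdx3-3, 2 higher and 3 lower in pdx3-4. Over all tested genes, 19% and 17.5% were called higher and lower in pdx3-3, and 20.9% and 18.4% in pdx3-4. The neighbours' median log2 fold change was −0.08 in pdx3-3 and −0.09 in pdx3-4. In pdx3-3 the lower genes were EXLB1 and CLPR4, and in pdx3-4 AT4G16880, AT4G16980 and UGLYAH; EXLB1, CLPR4 and UGLYAH, which lie farther out, were named after their values were seen.

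AT4G16880, a short leucine-rich repeat gene in the gap between RPP4 and SNC1, fell in pdx3-4. Its level was 46, 53.5 and 47 CPM in Col-0, 41.9, 42.3 and 44.6 CPM in pdx3-3 and 32, 31.2 and 24.1 CPM in pdx3-4. The 3 genotypes did not overlap, and pdx3-4 was lowest. The log2 fold change was −0.80 ± 0.10 (SE; edgeR adjusted p = 0.000140) in pdx3-4 and −0.24 ± 0.10 (adjusted p = 0.0864) in pdx3-3, and the alleles differed by 0.56 ± 0.10 (adjusted p = 0.0116). The count of RPP4 over that of AT4G16880 was 2.47 to 2.87 in Col-0, 4.89 to 6.36 in pdx3-3 and 7.17 to 8.43 in pdx3-4. AT4G16880 shared 9.97% of its 50-base words with members, most of them with RPP5.

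On the other side of RPP4, AT4G16870, an annotated pseudogene that shared no 50-base word with another gene, was called higher in both mutants. It stood at 56.1, 57.7 and 61.2 CPM in Col-0, 76.2, 77.6 and 126 CPM in pdx3-3 and 83.2, 103 and 80.6 CPM in pdx3-4, with pdx3-3 replicate 3 far above the rest of its group. Its log2 fold change was 0.62 ± 0.17 (SE; edgeR adjusted p = 0.0149) in pdx3-3, 0.35 without pdx3-3 replicate 3, and 0.55 ± 0.17 (adjusted p = 0.0235) in pdx3-4. The pdx3-4 call was lost without Col-0 replicate 1, Col-0 replicate 2 or pdx3-4 replicate 2 (0.53, 0.57 and 0.45, adjusted p = 0.0668, 0.0546 and 0.0908).

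RLM3, a TIR-domain gene known for resistance to Leptosphaeria maculans, lies beyond AT4G16960 on the plus strand. It was called higher, at log2 fold changes of 0.28 ± 0.08 (SE; edgeR adjusted p = 0.0248) in pdx3-3 and 0.38 ± 0.08 (adjusted p = 0.00455) in pdx3-4; the pdx3-3 call was lost without pdx3-3 replicate 3 (0.20, adjusted p = 0.104), without pdx3-3 replicate 2 (0.29, adjusted p = 0.0559), without Col-0 replicate 3 (0.21, adjusted p = 0.0613) and with only the compared genotypes in the fit (0.28, adjusted p = 0.0599). AT4G16980, of the arabinogalactan protein family, fell in pdx3-4 (−0.27, adjusted p = 0.0200) and had −0.16 in pdx3-3 (adjusted p = 0.146); the call was lost without Col-0 replicate 1 or 2 or pdx3-4 replicate 1 or 2 (adjusted p = 0.0745, 0.0510, 0.0662 and 0.0753). The noncoding RNA AT4G16892 (0.34 and 0.12), the pseudogene AT4G16910 (−0.69 and −0.26) and the kinase gene AT4G16970 (−0.09 and −0.40) were not called in pdx3-3 or pdx3-4.

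**Figure D4:**
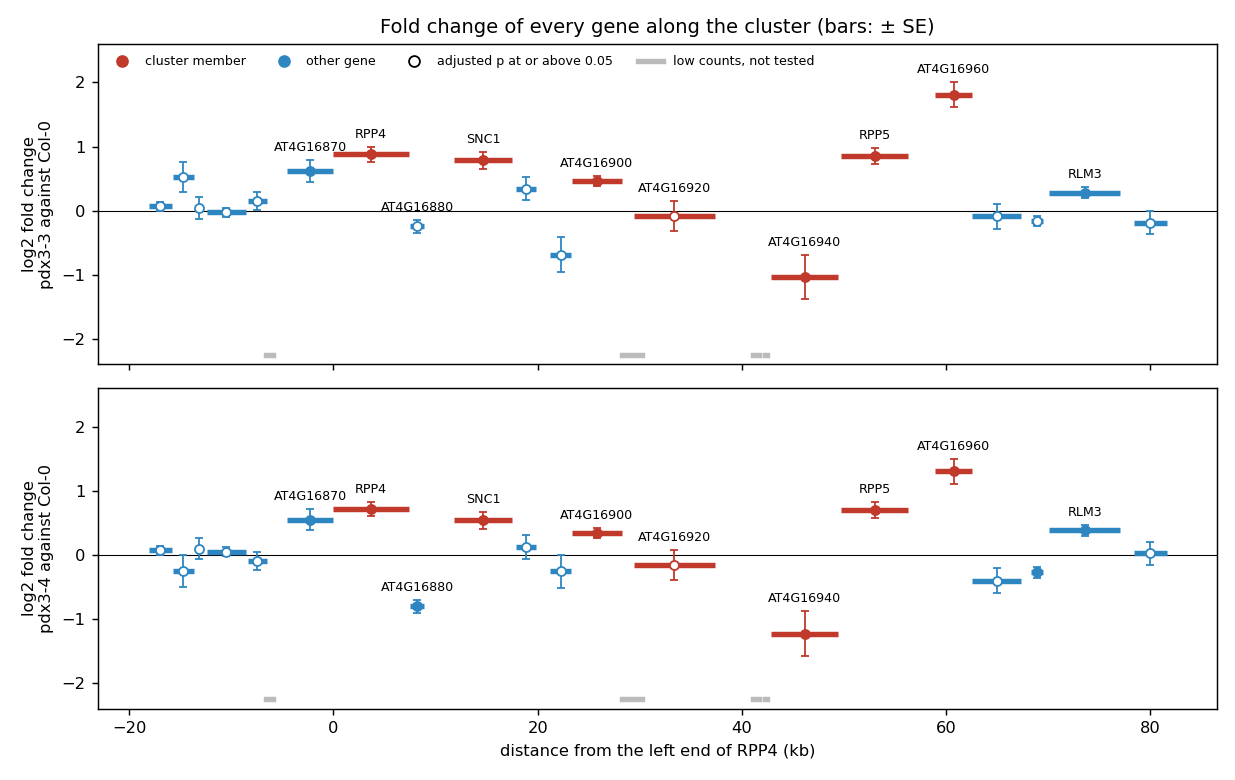
Log2 fold change against Col-0 of genes along the cluster, for pdx3-3 (top) and pdx3-4 (bottom), by distance in kb from the left end of RPP4; each horizontal bar spans a gene, vertical bars are ± SE, open points have an adjusted p at or above 0.05 and grey bars mark genes with low counts that were not tested. RPP4, SNC1, AT4G16900, RPP5 and AT4G16960 (red) lie above 0 in both panels, AT4G16940 below 0, and AT4G16880 sits at −0.24 in pdx3-3 and −0.80 in pdx3-4 between RPP4 and SNC1.

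Promoters of defence genes are known to be bound by WRKY factors at W-boxes and by TGA factors at a core of TGACG. In the 300 bases before each member's annotated start, the W-box (searched as TTGACC or TTGACT on both strands) occurred in 1 of 7 members, SNC1, and in 32% of 32834 such windows of the genome. TGACG on either strand occurred in 3 of 7 members, SNC1, AT4G16920 and RPP5, and in 20.9% of all windows. The SNC1 window is shown because it is the member window that holds both motifs and no other annotated gene. It lies at chr4:9505973-9506272 (TAIR10.1, minus strand), with the W-box, 12 bases before the start, in capitals.
SNC1 promoter: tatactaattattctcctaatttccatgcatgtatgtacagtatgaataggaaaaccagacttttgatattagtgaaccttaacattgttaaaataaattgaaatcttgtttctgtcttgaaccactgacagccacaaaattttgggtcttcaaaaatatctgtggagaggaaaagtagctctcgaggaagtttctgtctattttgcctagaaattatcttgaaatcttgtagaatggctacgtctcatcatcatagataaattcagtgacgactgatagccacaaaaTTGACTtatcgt

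The windows of the other 6 members run into neighbouring annotated genes. A match describes the letters of the window, and none of these data show binding there.

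The genes whose levels ran most alike to RPP4 and SNC1 were sought by the root mean square difference of centred log2 CPM over the 9 libraries, a description without a test. Nearest to RPP4 were AT2G40270 (0.05), TPP (0.06; a thylakoid signal peptidase), MPK5 (0.07; a MAP kinase), CRCK3 (0.07; a calmodulin-binding receptor-like kinase) and LPR2 (0.08; a multicopper oxidase of the low-phosphate root response). Nearest to SNC1 were GLR1.1 (0.05; a glutamate receptor-like channel), PUM5 (0.06; an RNA-binding Pumilio protein), MPK5 (0.06), PI4K GAMMA 4 (0.07; a ubiquitin-domain kinase) and AT1G21010 (0.07). MPK5 was in both groups. Among all other tested genes, RPP5 ranked 6 for RPP4 and 8 for SNC1, while SNC1 ranked 24 for RPP4. AT4G16960 (0.38) and AT4G16940 (0.87) were far less like RPP4.

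The receptors' signalling partners rose in both mutants. All 8 genes of the EDS1 and helper receptor list were called higher in pdx3-3 (median log2 fold change 1.93) and in pdx3-4 (median 1.46), beside 19% and 20.9% of all tested genes. EDS1, the lipase-like protein through which TIR receptors signal, stood at 22.3, 27 and 25.7 CPM in Col-0, 88, 99.7 and 107 CPM in pdx3-3 and 60.7, 63.3 and 69.5 CPM in pdx3-4. The 3 genotypes did not overlap, and pdx3-3 was highest. Log2 fold changes in pdx3-3 and pdx3-4 were 1.92 and 1.31 for EDS1, 2.90 and 2.18 for its partner PAD4 and 2.20 and 2.00 for its partner SAG101. The helper receptors had 2.01 and 1.63 (ADR1), 1.80 and 1.4 (ADR1-L1), 1.95 and 1.53 (ADR1-L2), 1.08 and 0.83 (NRG1.1) and 0.82 and 0.40 (NRG1.2). EDS1 and the NRG1 genes have close copies beside them in Col-0, so reads may have been divided between copies there too, which was not measured. The NRG1.2 call in pdx3-4 (edgeR adjusted p = 0.0436) was lost without Col-0 replicate 1 or 3, pdx3-3 replicate 2 or pdx3-4 replicate 1 or 2 (adjusted p = 0.0585 to 0.124).

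Genes listed as regulators of SNC1 or RPP4 had medians near 0. Of 28 listed, 26 were tested, and 3 were higher, 2 lower and 21 not called in pdx3-3 (median 0.04), with 5, 2 and 19 in pdx3-4 (median 0.03). Most tested genes were not called either, 11937 of 18783 in pdx3-3 and 11414 in pdx3-4. SGT1A, a co-chaperone of receptor assembly, rose with log2 fold changes of 1.61 and 1.31 in pdx3-3 and pdx3-4, and BAP1, a partner of the BON1 protein that restrains SNC1, with 3.97 and 1.66. MUSE13, a TRAF-domain protein of receptor turnover, rose by 0.23 and 0.28, its pdx3-3 call being lost without pdx3-3 replicate 3 (0.20, edgeR adjusted p = 0.0635). MOS9, which is known to promote transcription of RPP4 and SNC1, had −0.33 (adjusted p = 0.0438) in pdx3-3, a call kept in 5 of 18 alternatives, and −0.26 (adjusted p = 0.0951) in pdx3-4. The other calls, named after their values were seen, were MOS4, lower in both mutants (−0.21 and −0.30), and SMU2 (−0.30), CDC5 (0.23) and MOS2 (0.19) in pdx3-4. SMU2 (AT2G26460) was listed under the name MOS12, which the reference does not give it. Its place among the regulators is therefore uncertain, and the counts above include it. Also chosen after their values were seen, CPR1, the F-box protein that targets SNC1 for degradation, had −0.01 and −0.12 (adjusted p = 0.962 and 0.285), and SRFR1, a repressor of SNC1, had 0.03 and 0.10 (adjusted p = 0.850 and 0.408). BON1, with 0 or 1 counts per library, and BHLH84, with 0, did not pass the filter on low counts. The cause of the near absence of BON1 counts was not tested.

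Receptors outside the cluster were higher in most cases too. Of 14 tested TIR genes, 11 were called higher and 3 not called in pdx3-3 (median 0.64). In pdx3-4, 12 were called higher and 1 lower (median 0.56). Over all tested genes, 19% were called higher in pdx3-3, and 20.9% higher and 18.4% lower in pdx3-4. WRR4, which gives resistance to white rust, had log2 fold changes of 2.59 and 2.80, VICTR, known from a root response to a synthetic compound, 2.06 and 1.46, CHS1, a truncated TIR protein of chilling tolerance, 1.80 and 0.96, and RPS6, which detects a Pseudomonas effector, 1.29 and 0.79. TAO1, involved in sensing the Pseudomonas effector AvrB, fell in pdx3-4 (−0.44, edgeR adjusted p = 0.00671) and had −0.19 in pdx3-3 (adjusted p = 0.190). Of 8 coiled-coil receptors, 7 were called higher in pdx3-3 (median 0.87) and 6 in pdx3-4 (median 0.66), beside 19% and 20.9% of all tested genes. Log2 fold changes in pdx3-3 and pdx3-4 were 1.25 and 1.2 for RPM1 and 1.90 and 1.22 for RPS2, which both guard RIN4, and 1.52 and 1.33 for ZAR1. RPP13, a downy mildew receptor named after its values were seen, had 0.82 (adjusted p = 0.000285) and 0.06 (adjusted p = 0.726), and the alleles differed by 0.77 (adjusted p = 0.00449). RLM3 counts in this TIR list and among the neighbours above.

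Of 5 defence output genes, 4 were called higher in pdx3-3 and 3 in pdx3-4, beside 19% and 20.9% of all tested genes. ICS1, the enzyme of salicylic acid synthesis, had log2 fold changes of 2.16 and 1.26, and the pathogenesis-related genes PR2 and PR5 had 3.88 and 2.18 and 3.48 and 1.45. FMO1, which makes N-hydroxypipecolic acid, had 3.19 (edgeR adjusted p = 0.0418) and 2.28 (adjusted p = 0.143). Its counts were 18, 2 and 0 in Col-0, 75, 77 and 26 in pdx3-3 and 89, 15 and 5 in pdx3-4, so its size is poorly fixed: over the alternatives the value ran from 1.81 to 5.81 in pdx3-3 and from 0.47 to 4.91 in pdx3-4. The pdx3-3 call of FMO1 was kept in 11 of 18 alternatives, being lost without Col-0 replicate 2 or 3 or pdx3-3 replicate 1 or 2 (adjusted p = 0.0970 to 0.122), with pdx3-3 replicate 3 alone (0.472), with DESeq2 (0.0804) and with limma-voom (0.0580). PR1, a salicylic acid marker, was not called (2.71, adjusted p = 0.0623, and 1.72, adjusted p = 0.213) and was named after its values were seen. It stood at 34.7, 3.83 and 0.0535 CPM in Col-0, 71.1, 161 and 30.7 CPM in pdx3-3 and 70.7, 15.4 and 45.5 CPM in pdx3-4. Col-0 replicate 1 was the highest Col-0 library for both PR1 and FMO1, and its PR1 level lay within the range of each mutant.

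**Figure D5:**
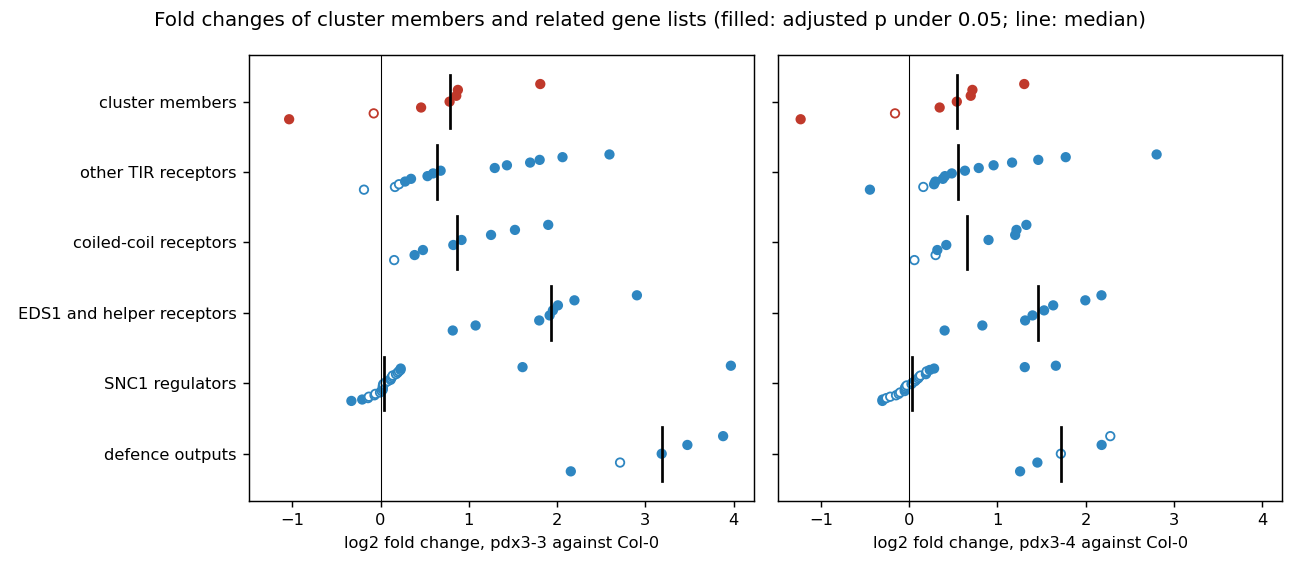
Log2 fold change against Col-0 of the tested genes of the cluster (red) and of the related lists (blue) in pdx3-3 (left) and pdx3-4 (right); each point is a gene, filled where its adjusted p is under 0.05, and the black line is the median of the list. The medians are 0.78 and 0.54 for the cluster and 1.93 and 1.46 for the EDS1 and helper receptors, and the SNC1 regulators centre at 0.04 and 0.03.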

How the data were processed

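The authors deposited raw counts for each gene and library, without normalization. PolyA selection, a TruSeq stranded kit and HiSeq2000 sequencing are given per the labels' protocols. The submitters' processing notes name TAIR10 as the build, TopHat2 (version 2) and FastQC; how reads were counted, and with which strand setting, is not given in the sources used here. Groups follow the genotype labels. Genes were kept with filterByExpr (18783), normalized by TMM (0.949 to 1.03) and fitted in edgeR 4.0.16 (R 4.3.3) by quasi-likelihood, genotype as the only term, all 9 libraries (6 residual degrees of freedom), Benjamini-Hochberg adjustment over all tested genes. The SE is the log2 fold change over the root of F, and intervals are 95%. The biological coefficient of variation was 0.109. The fit was tested on simulated data. Replicates differed by more than sampling noise (chi-square per degree of freedom 5.34 to 25.5). With 3 libraries against 3, a permutation test of a single gene cannot go below p = 0.1. Coordinates, exon lengths and sequences are from TAIR10.1, matched by locus ID for 32835 of 33323 nuclear loci; coding sequences were compared in place of proteins.

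Members and lists were chosen with earlier results of these data known. Named genes were all members, tested neighbours between RPP4 and RLM3, the whole EDS1 and helper list, up to 4 genes of each other list with the smallest adjusted p in pdx3-3 plus any that fell where most rose, and the 5 genes nearest to RPP4 and to SNC1. A gene that the rule names among the coiled-coil receptors is not reported here. Alternatives were median-of-ratios or library-size scaling, no filter, a filter of 1 CPM in at least 3 libraries, limma-voom (limma 3.58.1), DESeq2 1.42.0, only the genotypes compared, the replicate number as a block, each library left out, CPM on TMM-scaled library sizes, 100-base words, and, chosen after seeing the data, pdx3-3 replicates 1 and 2 left out together.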

Additional observations from a re-analysis of the deposited data

Results flagged for a closer look

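Some genes outside the cluster were called between the alleles by the test of the difference itself (pdx3-3 against pdx3-4, edgeR adjusted p under 0.05), while no cluster member was called. Over all tested genes, 3.32% were called higher and 2.84% lower. Higher in pdx3-3 were BAP1 (log2 fold change 2.31), PR5 (2.02), PR2 (1.70), the flower marker SEP3 (1.43), ICS1 (0.90), CHS1 (0.85), RPP13 (0.77), PAD4 (0.73), EDS1 (0.60), AT4G16880 (0.56), ADR1-L2 (0.42), HSP90.2 (0.42), a chaperone gene with close copies that may share its reads, and SGT1A (0.30). PDX3 was lower in pdx3-3 (−2.29). Of 18 alternatives, all kept the calls of BAP1, PR5, ICS1, RPP13, EDS1 and PDX3, 17 those of PAD4 and AT4G16880, 15 that of CHS1, 14 those of PR2 and HSP90.2, 12 that of ADR1-L2 and 8 that of SGT1A, while SEP3 kept its call in 8 of 17. AT4G16880 lies between RPP4 and SNC1, whose own differences between the alleles were 0.16 and 0.24 and were not called.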

How the results depend on the processing

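Of 375 values compared for the 21 member fold changes under 18 alternatives, 355 kept their direction and their side of the threshold. The calls of RPP4, SNC1, AT4G16900, RPP5 and AT4G16960 against Col-0 held under all 18, with 5 members higher each time. The call of AT4G16940 in pdx3-3 held in 5 of 17 alternatives and that in pdx3-4 in 15 of 17. Members called lower in pdx3-3 numbered 0 with the filter of at least 1 CPM in 3 libraries, which removes AT4G16940, with DESeq2, with limma-voom, with only the compared genotypes in the fit and with pdx3-3 replicate 3 alone, and 0 to 1 when single libraries were left out. In pdx3-4 the number was 0 with that filter and 0 to 1 when single libraries were left out. Between the alleles, 1 member (AT4G16960) was called higher with pdx3-3 replicate 3 alone, and 0 to 1 when single libraries were left out. AT4G16920, never called, changed sign in pdx3-3, to 0.0036 without Col-0 replicate 3, 0.11 without pdx3-3 replicate 2 and 0.16 with replicate 3 alone (−0.22 to 0.11 when single libraries were left out). Between the alleles it was −0.057 without pdx3-3 replicate 3, in a range of −0.057 to 0.26.

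Over all genes, 1449 were called lower in pdx3-3 with replicate 3 as the lone library. Between the alleles that setting called 318 higher and 40 lower, and leaving out single libraries gave 246 to 990 higher and 145 to 826 lower. Apart from the removed gene and the fewer libraries, the cause of these changes was not tested. The replicate numbers were not treated as pairs in the main fit. Correlations of same-numbered deviations were −0.15 to 0.343, highest between replicate 1 of Col-0 and of pdx3-4. Of 9 libraries, 3 correlated best with a library of their own number. With 3 libraries per genotype, these values cannot decide whether same-numbered libraries shared a batch. With the number as a block, RPP4 was 0.88 and SNC1 0.79 in pdx3-3, 5 members were higher and 1 lower in each mutant, and no member's call changed. Among genes outside the cluster, the block ended the pdx3-3 call of RLM3 (0.28, adjusted p = 0.0520) and called FMO1 in pdx3-4 (2.20, adjusted p = 0.0261), and between the alleles it ended the calls of SGT1A (0.30, adjusted p = 0.0662) and SEP3 (1.43, adjusted p = 0.0731). Depth limits AT4G16920 and AT4G16940, with 7 to 40 counts per library. The shares of 50-base words fell for all 7 members with 100-base words.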
